A study of Homo sapiens with 3 samples.

Results

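The SOX genes encode transcription factors that share an HMG box, a domain that binds and bends DNA at short sites with an ACAAT core. They are sorted into subgroups by sequence, and 10 SOX rows of the 32727 genes measured were followed here across the 14 clusters of cells in the deposited table. The members were the induced gene SOX17 with its SOXF relatives SOX7 and SOX18, SOX2 of subgroup B1 with the long non-coding gene SOX2-OT that surrounds it, SOX4 and SOX11 of subgroup C, SOX5 and SOX6 of subgroup D, and SOX15 of subgroup G. They were chosen by name and subgroup, with earlier results of these data known. Another 14 rows carried a SOX name and served for comparison.

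The cells were embryonal carcinoma (EC) cells, which are stem cell-like, belong to the non-seminomatous germ cell tumors and can form yolk-sac tumor (YST) cells. The lines were NCCIT, GCT27 and 2102EP, with 1 droplet-based 3' library each, and the title of 1 library named GCT27 where its other labels named GCT26. All lines stably carried the Lenti-MPHv2 helper of the CRISPR activation system, selected with hygromycin, and all received SOX17-lenti-SAMv2 virus, which drives the SOX17 gene at its own locus. From the next day cells received 100 ng/mL of Activin-A, 3 µM of CHIRON, which activates WNT signaling, 25 ng/mL of FGF2 and 1 µg/mL of heparin, renewed every 48 h until day 8. Per the series' design text, 3 replicates of each line had been combined before sequencing, so the spread between them is not in the data. A quality listing of the study names the line NT2/D1 where the labels name NCCIT, which was not resolved. No untreated cells were among the libraries, so a difference between clusters is not a change from the parental state.

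The table held 20844 cells in clusters numbered 0 to 13, with 2808 cells in cluster 0 and 42 in cluster 13. Values were the authors' averages in unique molecular identifiers (UMIs, counted RNA molecules) per 10000 of the pooled cells of a cluster. The 3 library codes matched no label, the averages pooled the libraries, and 1 library per line left no replicate, so no error between cultures and no test could be given. These same values had defined the clusters, so all differences below are descriptions. A single library held 72.7%, 83.2%, 86.3%, 99.4% and 73.8% of the cells of clusters 5, 9, 11, 12 and 13, and in those clusters library and cell state cannot be told apart. A difference is given as the log2 of a cluster's average plus 0.1 over the mean of the other 13 clusters plus 0.1, and 2-fold means a size of at least 1 on this scale. Shares of genes past 2-fold refer to the 12139 genes with a mean over clusters of at least 0.05. SOX7 and SOX15 lay below this minimum, and the other 8 members above it. Of the 10 EC markers, 9 were above it and POU5F1 reached 3.96 in cluster 6. Of the 14 YST markers, AFP, APOA2, APOB and FOXA2 were below it, and SOX17 and 9 others were above it. Among those, GPC3 reached 9.78 in cluster 9 and ANKRD1 6.84 in cluster 1.

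SOX17 directs definitive and primitive endoderm and the specification of human primordial germ cells. SOX7 and SOX18 act with it in endothelial development. SOX2 holds pluripotency together with OCT4 (POU5F1), and SOX4 and SOX11 act in progenitor cells, above all of the nervous system. SOX5 and SOX6 lack a transactivation domain of their own and assist other SOX proteins, such as SOX9 in cartilage. All of them read similar DNA words, and the partner protein largely decides which sites a SOX protein uses.

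SOX17, SOX5, SOX6 and SOX2-OT were highest in cluster 0 and second highest in cluster 7. SOX2 was highest in cluster 6, SOX18 in cluster 8, and SOX4 and SOX11 in clusters 12 and 4. SOX7 and SOX15 stayed near 0 in every cluster. In cluster 0, 4 of the 10 members were at least 2-fold higher than in the other clusters, against 2.29% of all genes. In cluster 7 these were 3 members, SOX17, SOX5 and SOX6, against 0.659% of all genes. The largest library held 57.6% of cluster 0 and 48.1% of cluster 7, and its part in these levels was not tested.

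SOX17 (chromosome 8, 54457935 to 54460892, plus strand, GRCh38) spanned the widest range of the members with a mean above the minimum, 272-fold between cluster 0 (21.0 UMIs per 10000) and cluster 10 (0.0772), with a median over clusters of 0.472. After cluster 0 came cluster 7 (12.4) and cluster 13 (8.52), then cluster 6 (4.54) and cluster 3 (2.52). The remaining 9 clusters lay between 0.0772 and 0.821, each at least 2-fold lower than the mean of the others. Multiplied by the number of cells, cluster 0 held 63.2% of the summed SOX17 level and 13.5% of the cells, and cluster 7 held 17.5% of the level and 6.32% of the cells.

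The share of cells with SOX17 RNA and the level per such cell differed in separate ways. The authors' marker table gave a SOX17 UMI in 95.2% of the cells of cluster 0, 61.4% of cluster 7 and 97.6% of cluster 13. An average divided by that share gave 22.0 UMIs per 10000 per detected cell in cluster 0, 20.2 in cluster 7 and 8.73 in cluster 13. Cluster 7 thus lay below cluster 0 mainly in the share of cells with the RNA, and cluster 13 mainly in the level per detected cell. Over the 16677 cells of the other 11 clusters, 15.0% had a SOX17 UMI, at 7.05 UMIs per 10000 per detected cell. The part of free RNA in that share was not tested. Cluster 13 held 42 cells, had 6.10% mitochondrial UMIs, against 2.47 to 3.51% in the others, and its median gene lay at a log2 difference of -0.51. SOX17 was the 1 member at least 2-fold higher there (log2 difference 1.32, or 0.92 when each other cluster counts by its cells), against 1.85% of all genes.

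The SOXF relatives of the induced gene did not share its pattern. SOX7 (chromosome 8, 10723768 to 10730511, minus strand) had averages from 0 in cluster 13 to 0.0420 in cluster 11, with a median of 0.0174. Its level in cluster 0 was 0.0201. The annotation has SOX7 overlapping PINX1 on the same strand, so reads of the pair may have been shared or lost in counting. SOX18 (chromosome 20, 64047582 to 64049639, minus strand), a factor of blood and lymph vessel development, ranged from 0.00847 in cluster 13 through a median of 0.0576 to 0.263 in cluster 8. It was the 1 member at least 2-fold higher in cluster 8, with a log2 difference of 1.07 (0.97 with the others weighted by cells), against 1.15% of all genes, and cluster 2 followed with 0.221, just under 2-fold at 0.86. In cluster 0, where SOX17 was highest, SOX18 was at 0.0116, and clusters 0, 7, 6 and 4 were its lowest after cluster 13.

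Over the 14 clusters the Pearson r of SOX18 with SOX17 was -0.53 on log2 averages plus 0.1, and Spearman's rho was -0.50. Among all other genes with the minimum mean, 6.24% had an r with SOX17 of -0.5 or lower and 4.08% an r of 0.5 or higher. These correlations have 14 points that share the same 3 libraries, and they serve as a measure of likeness. The 3 genes most like SOX18 were TNFRSF11B, the decoy receptor osteoprotegerin (r = 0.96), EHD3, an endocytic recycling protein (r = 0.96), and LZTS1 (r = 0.96), all highest in cluster 8, where TNFRSF11B reached 4.18. For SOX17 they were AC087379.1, named in the table by its clone only (r = 0.98), NENF, a secreted neurotrophic protein (r = 0.96), and MGLL, a monoacylglycerol lipase (r = 0.91), all highest in cluster 0. NENF was at 7.84 there and at 0.207 in cluster 9, its lowest.

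SOX5 and SOX6 of subgroup D had the highest Pearson r with SOX17 of the transcription factor genes among the members, whereas by Spearman's rho SOX2 (0.47) came before both. SOX5 (chromosome 12, 23529504 to 24562544, minus strand) reached 37.2 UMIs per 10000 in cluster 0 and 20.1 in cluster 7, log2 differences of 2.89 and 1.67. Its median was 4.09 and its lowest value 1.08, in cluster 5. SOX6 (chromosome 11, 15966449 to 16739591, minus strand) was at 1.72 in cluster 0 and 0.689 in cluster 7, log2 differences of 2.70 and 1.14 (0.74 for cluster 7 with the others weighted by cells), with a median of 0.144 and a lowest value of 0.0796 in cluster 11. Both genes thus had the same leading clusters as SOX17. C11orf58 overlaps SOX6 and SOX5-AS1 lies inside SOX5, each on the opposite strand.

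Cells outside the leading clusters differed between the pair. SOX5 UMIs were found in 95.2% of cluster 0, in 81.3% of cluster 7 and still in 71.5% of the 16719 cells of the other 12 clusters. The level per detected cell was 39.1, 24.7 and 5.31 UMIs per 10000 in that order. The share of cells with a SOX5 UMI thus differed less between clusters than the level per detected cell. A share is capped and had little room to rise from 71.5%, while the level has no cap, which limits this comparison. The part of free RNA in these shares was not tested. SOX6 was detected in 65.8%, 44.3% and 22.1% of the cells, at 2.61, 1.55 and 0.661 UMIs per 10000 per detected cell, so its share of cells and its level per cell were both higher in clusters 0 and 7.

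The r of SOX17 was 0.71 with SOX5 and 0.69 with SOX6, while Spearman's rho was 0.46 and 0.41, so the order of the lower clusters was less alike than the height of the leading ones. Without the 5 clusters in which 1 library held over 70% of the cells, r was 0.95 and 0.83. Without cluster 0 it was 0.57 and 0.53. The ratio of SOX17 to SOX5 averages lay between 0.507 and 0.617 in clusters 0, 3, 5, 6, 7 and 11, although SOX17 itself ran from 0.614 to 21.0 in these 6 clusters. In clusters 1, 2, 4, 8, 9, 10 and 12 the ratio was between 0.0233 and 0.125, and in cluster 13 it was 2.29. The clusters with the same ratio thus included both the highest and the lowest level of SOX5. SOX5 and SOX6 were alike over the clusters (r = 0.89, rho = 0.89), and the SOX5 to SOX6 ratio lay between 11.2 and 51.5.

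The genes most like SOX5 were PLAGL1, an imprinted zinc finger factor (r = 0.98), COL4A6, a basement membrane collagen chain (r = 0.95), and MIR181A2HG, a microRNA host gene (r = 0.95). Those most like SOX6 were RHOBTB1 (r = 0.97), SH3BGRL (r = 0.96) and IFI16, an interferon-inducible DNA sensor (r = 0.95). All 6 were highest in cluster 0, where PLAGL1 reached 3.43 and SH3BGRL 2.94.

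Because SOX5, SOX6 and SOX2-OT were high in the same clusters as SOX17, the bases before their starts were searched for the SOX core words AACAAT and ACAATG on both strands. The RefSeq table of start sites (GRCh38.p14) was used with the 250 bases before each start, where 14.7% of 35116 windows held either word. AACAAT was in 8.98% and ACAATG in 9.29%, and the words can overlap. The stretches below lie in no GENCODE 44 exon and read 5' to 3' on the gene's strand, with matches in capitals. The first are SOX5 with 3 matches (chr12:24562545-24562741, minus strand) and the start of SOX6 with the most matches, which lies inside the gene (chr11:16356547-16356796, minus strand). For contrast, SOX2-OT (chr3:181056430-181056597, plus strand) and SOX2 (chr3:181711739-181711924, plus strand) are printed, with no match. The 3 SOX2-OT starts searched all lie inside the gene as annotated (180989762 to 181836880), so the bases before its annotated start were not searched.
SOX5: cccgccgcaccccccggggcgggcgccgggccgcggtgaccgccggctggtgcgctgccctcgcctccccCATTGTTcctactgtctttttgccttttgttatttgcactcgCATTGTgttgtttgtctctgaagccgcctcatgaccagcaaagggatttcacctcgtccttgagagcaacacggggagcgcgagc
SOX6: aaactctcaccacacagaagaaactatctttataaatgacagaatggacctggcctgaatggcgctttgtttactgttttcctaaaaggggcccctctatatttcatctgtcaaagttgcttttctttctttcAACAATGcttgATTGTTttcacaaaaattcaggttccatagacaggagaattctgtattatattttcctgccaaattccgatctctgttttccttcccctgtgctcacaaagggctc
SOX2-OT: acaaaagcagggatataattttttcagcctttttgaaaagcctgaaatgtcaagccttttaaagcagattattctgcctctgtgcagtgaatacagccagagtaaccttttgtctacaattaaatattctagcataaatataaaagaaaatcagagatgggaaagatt
SOX2: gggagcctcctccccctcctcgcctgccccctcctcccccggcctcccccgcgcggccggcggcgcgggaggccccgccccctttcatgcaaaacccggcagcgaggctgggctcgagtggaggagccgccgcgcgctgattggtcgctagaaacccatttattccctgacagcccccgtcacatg

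In SOX5 the word CATTGT, the reverse complement of ACAATG, began 180 and 138 bases before the start, and the first copy overlapped ATTGTT at 179. Of the 5 SOX6 starts, 3 had a match, including the printed one with AACAAT at 117, ACAATG at 116 and ATTGTT at 106. The SOX6 start farthest upstream had none, nor had the windows of SOX2, SOX4 and the 3 of SOX2-OT. A match is a run of letters and not a binding site, and no match says only that these letters are absent from the window. SOX11, SOX15 and SOX18 had no entry, and SOX17 and SOX7 were left out of the search.

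SOX2 and SOX2-OT, which share a locus, were high in different clusters. SOX2 (chromosome 3, 181711925 to 181714436, plus strand) lies inside SOX2-OT (180989762 to 181836880, same strand), with 0 shared exon bases in the annotation. SOX2 peaked in cluster 6 at 1.60 UMIs per 10000 and was next highest in cluster 3 at 0.568, with a median of 0.314 and a lowest value of 0.0408 in cluster 9. Its log2 difference of 2.18 made it the 1 member at least 2-fold higher in cluster 6, against 1.18% of all genes. SOX2-OT peaked in cluster 0 at 5.13 and was next highest in cluster 7 at 1.38, with a median of 0.240 and a lowest value of 0.0616 in cluster 12. Its log2 difference was 3.51 in cluster 0 and 0.98 in cluster 7, just under 2-fold.

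The SOX2-OT to SOX2 ratio made the split plain. It reached 13.9 for cluster 0, 8.86 for cluster 9, 2.80 for cluster 13 and 2.69 for cluster 7, but was only 0.526 for cluster 6 and 0.285 for cluster 10. SOX2 in cluster 0 was at 0.368, close to its own mean over clusters of 0.369. SOX2-OT UMIs were found in 79.2% of cluster 0, 43.2% of cluster 7 and 26.4% of the cells of the other 12 clusters. A SOX2 UMI was found in 73.4% of cluster 6, against 26.9% of the cells elsewhere. None of the sources used here says whether reads from introns were counted, so the split of reads between the overlapping pair is uncertain. SOX5, SOX2-OT and SOX6 span 1033, 847 and 773 kb, against 2.96 kb for SOX17. The part of intron reads in the levels of these genes was not tested.

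SOX2-OT was among the members most like SOX17 (r = 0.84, rho = 0.71), and its r was 0.85 with SOX5 and 0.88 with SOX6. With SOX2 it was 0.45 (rho 0.48). SOX2 and SOX17 had an r of 0.47 (rho 0.47). The SOX17 to SOX2 ratio reached 57.0, 24.2 and 71.3 in clusters 0, 7 and 13. It was 2.84 in cluster 6 and 0.171 in cluster 10, the 1 cluster with a ratio under 1. Cluster 6 thus combined the highest SOX2 with the fourth highest SOX17 level. It also had the highest summed level of 12 S phase genes (12.4), whose part in the SOX2 level was not tested.

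The genes most like SOX2 were MGST1, a glutathione transferase (r = 0.92), SNHG1, a small nucleolar RNA host gene (r = 0.89), and LIN28A, an RNA-binding pluripotency factor (r = 0.86), all highest in cluster 6. Those most like SOX2-OT were NRCAM, a neuronal adhesion molecule (r = 0.96), FGFBP3, an FGF-binding protein (r = 0.94), and ANAPC13, a subunit of the anaphase-promoting complex (r = 0.94), all highest in cluster 0. NRCAM was at 1.67 in cluster 0 and 0.0440 in cluster 5.

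The SOXC genes varied the least among the members above the minimum and were high in other clusters. SOX4 (chromosome 6, 21593751 to 21598619, plus strand) ranged from 1.35 UMIs per 10000 in cluster 13 through a median of 2.47 to 4.79 in cluster 4 and 5.89 in cluster 12. In cluster 12 it was the 1 member at least 2-fold higher (log2 difference 1.25), against 2.82% of all genes, and that cluster came to 99.4% from 1 library. SOX11 (chromosome 2, 5692384 to 5701385, plus strand) ranged from 0.300 in cluster 13 through a median of 0.612 to 1.38 in cluster 4, with 1.25 in cluster 9. It was the 1 member at least 2-fold higher in cluster 4 (1.02, or 0.83 with columns rescaled by their median ratio), against 1.22% of all genes, with cluster 9 at 0.86. SOX4 UMIs were found in 90.3% of cluster 4 and 100% of the 180 cells of cluster 12, against 83.6% in the other 12 clusters. SOX11 was detected in 89.1% of cluster 4, 84.1% of cluster 9 and 60.8% of the rest.

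SOX4 and SOX11 were alike in order (r = 0.65, rho = 0.68). Their r with SOX17 was -0.21 and -0.63. SOX11 was at 0.381 in cluster 0, its lowest value after cluster 13. The genes most like SOX4 were ZFP36L1, an mRNA decay factor (r = 0.91), OSBPL10 (r = 0.89) and LUCAT1, a long non-coding RNA (r = 0.87). Those most like SOX11 included the small GTPase RAB31 (r = 0.86) and the kinase MKNK2 (r = 0.84). These 5 were highest in cluster 4 or cluster 12.

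SOX15 (chromosome 17, 7588178 to 7590094, minus strand), which can bind DNA like SOX2, had averages between 0.00230 in cluster 9 and 0.0428 in cluster 11, with a median of 0.0153. MPDU1 overlaps it on the opposite strand. Its r with SOX2 was 0.64 and with SOX17 0.15, at levels where 0.1 added to each value outweighs the level itself.

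**Figure D1:**
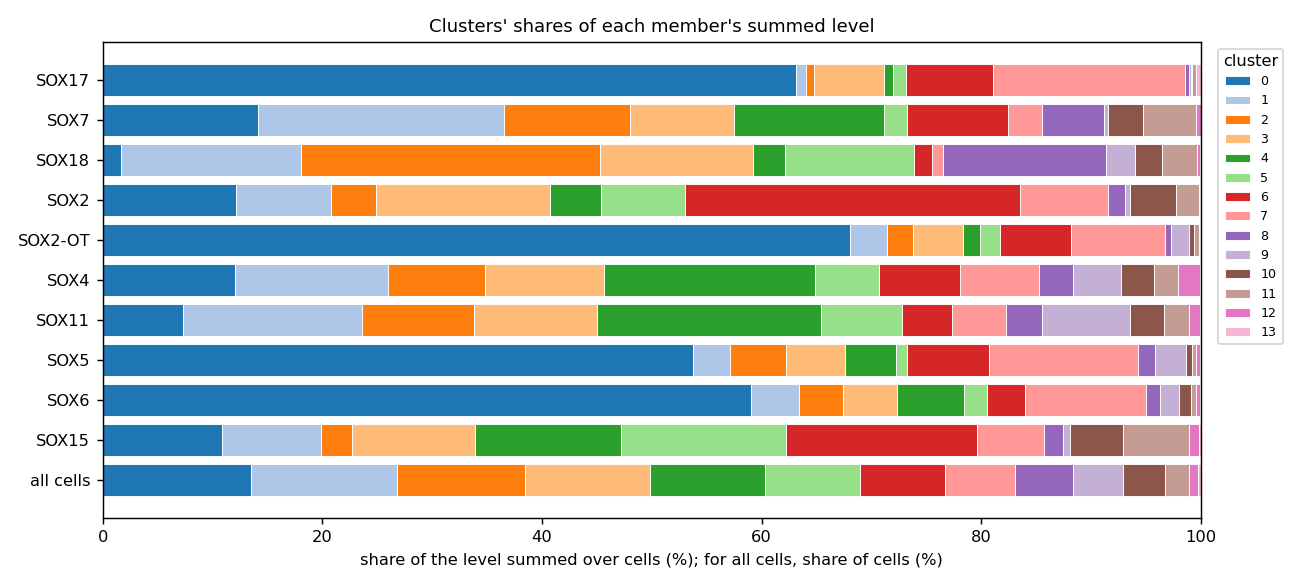
Share of each member's level, multiplied by cells and summed, that fell in each of the 14 clusters (colours, %), with the share of cells in the bottom bar. Cluster 0 holds 13.5% of the cells and 63.2%, 53.8%, 59.0% and 68.1% of the summed SOX17, SOX5, SOX6 and SOX2-OT levels, while cluster 6 holds 30.5% of SOX2 and cluster 2 27.3% of SOX18.

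The lower values fell mostly on the 4 members that were high in cluster 0. In cluster 5 and in cluster 11, SOX17, SOX2-OT, SOX5 and SOX6 were all at least 2-fold lower, 4 of 10 members, against 4.25% and 5.02% of all genes. In these clusters the median gene also lay at -0.24 and -0.29, and ribosomal protein genes took 22.4% and 22.7% of the UMIs. Cluster 8 had 5 lower members, these 4 and SOX2, against 0.881%. Clusters 1 and 10 had 3 each, SOX17, SOX2-OT and SOX5, against 0.387% and 0.61%. Clusters 2 and 4 had 2 each, SOX17 and SOX2-OT, against 0.568% and 1.24%. In cluster 9 they were SOX17 and SOX2, against 3.12%, and in cluster 12 SOX17, SOX2 and SOX2-OT, against 3.13%. In cluster 13 they were SOX2 and SOX11, and there 23.9% of all genes were lower. After rescaling by the median ratio, differences no longer past 2-fold were SOX6 in cluster 5 (-0.81), SOX6 (-0.90) and SOX2-OT (-0.98) in cluster 11, and SOX11 (-0.67) and SOX2 (-0.93) in cluster 13. Over the members and clusters, 12 of 140 pairs were at least 2-fold higher and 30 were lower. For these totals no share over all genes and clusters was computed. A very high value in 1 cluster raises the mean that all other clusters are set against, which lowers their differences. With cluster 0 left out of that mean, SOX2-OT was at -0.61 in cluster 5 and -0.53 in cluster 11, and SOX6 at -0.57 and -0.68, so that SOX17 and SOX5 were the members still 2-fold lower there. SOX5 (-0.95) and SOX6 (-0.61) in cluster 8, and SOX2-OT in clusters 1 (-0.40), 2 (-0.62) and 4 (-0.91), were then also no longer past 2-fold.

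Of the 14 other SOX rows, 5 had a mean of at least 0.05. Of these 5, SOX21, a SOXB2 gene, and its antisense gene SOX21-AS1 were the most like SOX17. SOX21 was at 0.605 in cluster 0 and 0.339 in cluster 7, detected in 61.9%, 25.3% and 4.40% of the cells of cluster 0, cluster 7 and the other clusters, and its r was 0.90 with SOX17 and 0.95 with SOX2-OT. SOX21-AS1 was at 1.31 in cluster 0 and 0.420 in cluster 7 (r = 0.89 with SOX17). The pair overlaps on opposite strands. SOX13, the third SOXD gene, was highest in cluster 0 too, at 0.269, with a log2 difference of 0.84 and an r of 0.70 with SOX17. SOX9, the SOXE factor that SOX5 and SOX6 assist in cartilage, was highest in cluster 4 at 0.510 (log2 difference 1.39), as was SOX11, and its r with SOX17 was -0.43. Its UMIs were found in 56.7% of cluster 4, against 23.5% elsewhere. SOX12 of subgroup C lay between 0.0447 in cluster 11 and 0.227 in cluster 13.

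The remaining 9 rows were below the minimum. SOX5-AS1 was highest in cluster 0 (0.122) and lowest in cluster 11 (0.00161). SOX3 reached 0.0414 in cluster 13, SOX8 0.0447 in cluster 9, SOX14 0.0343 in cluster 5, SOX9-AS1 0.0279 in cluster 4 and SOX10 0.0112 in cluster 5. SOX1, SOX1-OT and SOX30 stayed below 0.003 in every cluster. SOX9-AS1 was lowest in cluster 6 (0.0114), while SOX3, SOX14, SOX8, SOX10, SOX1, SOX1-OT and SOX30 were each listed at 0 in at least 1 cluster.

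**Figure D2:**
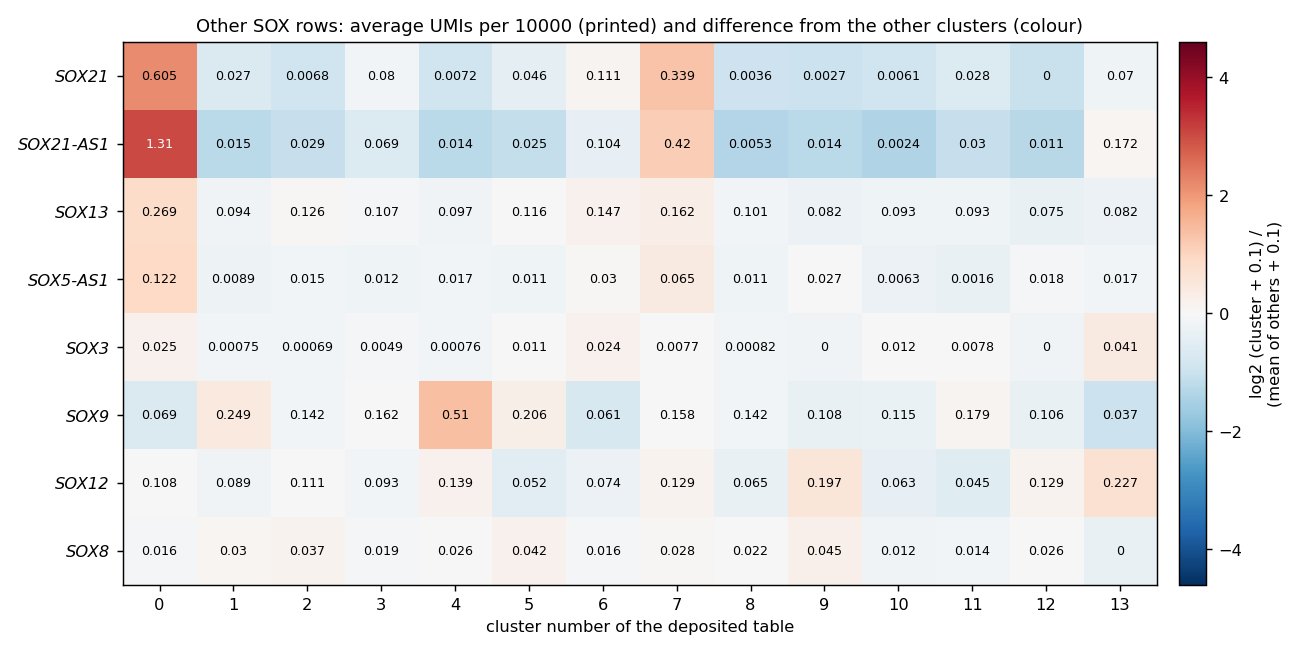
Average of 8 SOX rows that are not members (rows) in the 14 clusters (columns), printed as UMIs per 10000, with the log2 difference from the other clusters as colour. SOX21 and SOX21-AS1 are red in clusters 0 and 7, and SOX9 in cluster 4, where it was at 0.510.

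Partner and target lists of the SOX proteins were set beside SOX17. Counts refer to list genes with the minimum mean, and the median r of all such genes with SOX17 was -0.14. Of the endoderm partners and targets of SOX17, 0 of 11 had an r of at least 0.5 and 1 had -0.5 or lower. The basement membrane genes COL4A1 (0.48), COL4A2 (0.47) and LAMA1 (0.21) had the highest r, and the endoderm genes GATA4 (-0.61), CER1 (-0.39) and GATA6 (-0.38) the lowest. CER1, a secreted NODAL and BMP inhibitor, was at 0.0438 in cluster 0 and 2.55 in cluster 8. COL4A1 was highest in cluster 0 at 2.66. FOXA2 reached 0.00457 at most.

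Of the germ cell genes that act with SOX17 in primordial germ cells, 3 of 6 had an r of at least 0.5 and 0 had -0.5 or lower. They were TFAP2A (0.84), TFAP2C (0.66) and PDPN (0.64), while SALL4 (-0.30), PRDM1 (-0.25) and ITGA6 (0.13) were lowest. TFAP2A was at 0.294 in cluster 0, its highest value. NANOS3, KIT, DND1, DPPA3 and CD38 lay below the minimum.

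Of the endothelial targets of SOXF proteins, 3 of 8 had an r of at least 0.5 and 0 had -0.5 or lower. CDH5, the cadherin of endothelial junctions (0.88), the VEGF receptor KDR (0.78) and EGFL7 (0.57) were highest, and FLT1 (-0.49), NRP1 (-0.44) and NOTCH1 (-0.44) lowest. CDH5 was at 0.342 and KDR at 0.538 in cluster 0. EGFL7 was at 0.290 there, a log2 difference of 0.28, and was highest in cluster 13 (0.524). Of the list genes with a mean below the minimum, PECAM1 (0.0721), DLL4 (0.0758) and CLDN5 (0.00769) were also highest in cluster 0. TEK was highest in cluster 9 (0.0955, against 0.0698 in cluster 0) and ROBO4 in cluster 5 (0.0205). Of the 6 endothelial markers, 2 of the 3 above the minimum had an r of at least 0.5, namely CDH5 and KDR, and VWF was at -0.26.

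Of 12 OCT4 and SOX2 partners and targets, 1 had an r with SOX17 of at least 0.5 and 0 had -0.5 or lower. The NODAL antagonist LEFTY2 (0.56), LIN28A (0.36) and DPPA4 (0.35) were highest, and TDGF1 (-0.38), SALL4 (-0.30) and ZFP42 (-0.23) lowest. LEFTY2 did not share the SOX17 peak, since its average was lowest in cluster 0 (0.0246). Its highest values were 0.359 in the 42 cells of cluster 13 and 0.292 in cluster 7. Of the SOXC targets, 2 of 7 had an r of at least 0.5, NRCAM (0.81) and MAP2 (0.69), followed by STMN1 (0.46), and 1 had -0.5 or lower, TEAD2 (-0.52), followed by PLXNA2 (-0.39) and TUBB3 (-0.06). TUBB3, a neuronal tubulin, was highest in cluster 4 like SOX11, at 2.89, with 2.88 in cluster 12. No other gene of that list was highest in cluster 4. Of the cartilage partners of SOXD and SOXE proteins, only MATN1 (0.46) and SOX9 itself were above the minimum.

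None of the 12 S phase and 12 G2M genes had an r with SOX17 of 0.5 or more, or of -0.5 or lower. Among S phase genes the values ran from -0.21 (SLBP), -0.10 (MCM4) and -0.09 (MCM6) up to 0.23 (MCM3 and RRM2) and 0.26 (CDC45). Among G2M genes they ran from 0.08 (UBE2C), 0.14 (CENPE) and 0.17 (TOP2A) up to 0.33 (BIRC5 and CCNB1) and 0.45 (CCNB2). Of the EC markers, 0 of 9 passed either limit. Of the YST markers apart from SOX17 itself, 1 of 9 had an r of at least 0.5, APOA1 (0.85), and 4 had -0.5 or lower, GATA4 (-0.61), DUSP4 (-0.56), CST1 (-0.55) and BMP2 (-0.55). Of the neural markers 1 of 3 was at 0.5 or higher, MAP2, and of the mesoderm markers 1 of 4 was at -0.5 or lower, MIXL1 (-0.54).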

How the data were processed

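Cells of 3 EC lines were measured at day 8, 1 library per line. Per the submitters' processing notes, Cell Ranger 7.0, Seurat 4.1.1 and GRCh38 were used. The study states that libraries were aggregated with a correction for sequencing depth and that poor cells and doublets were removed before clustering. The authors deposited averages per cluster (mean UMIs per 10000, each column summing to 10000), a count of the cells that each library code had in each cluster, and a marker table. From the marker table the deposited fraction of cells with a UMI was used for listed genes. Its log2 fold changes and p-values compare a cluster with all other cells, and were not used. Library UMI totals were not used here, so depth is known only as numbers of cells, and an average of 0 in the 42 cells of cluster 13 allows up to 7.14% of cells with a UMI (3 counts, counting error only).

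Differences, ratios, Pearson r and Spearman's rho were computed in Python 3.11.15 with pandas 2.3.3 and numpy 2.4.6, and checked on simulated data. Plots used matplotlib 3.10.9. Members and lists were chosen with earlier results of these data known. All members, all other SOX rows, the 3 genes most like each member (mean of at least 0.2) and the 3 highest and 3 lowest list genes by r with SOX17 were named by rule, except 1 gene that is not reported here. Other list genes are given as counts. The values of CDH5, KDR, CER1, COL4A1, FOXA2, TFAP2A, TUBB3, PECAM1 and CLDN5 were added after they were seen. So were those of DLL4, TEK, ROBO4, APOA1, MIXL1, DUSP4, CST1, BMP2, GPC3, ANKRD1, LEFTY2 and EGFL7. Positions came from GENCODE 44 and bases before starts from RefSeq. Alternatives were pseudocounts of 0.01 and 1, column rescaling by the median of ratios, weighting by cells, other minimums, and leaving out clusters.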

Additional observations from a re-analysis of the deposited data

How the results depend on the processing

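Of the differences of members by cluster and their alternatives, 934 stayed on their side of 2-fold, 42 were no longer past it and 54 came past it. Of the differences past 2-fold, 0 reversed, and the direction of those under 2-fold was not compared. The 30 pairs at least 2-fold lower became 49 with a pseudocount of 0.01 and 14 with 1, since the added value decides how far a low level can fall. The SOX17 and SOX5 correlation of 0.71 was 0.95 without the clusters in which 1 library held over 70% of the cells, and 0.46 as Spearman's rho. As rho, SOX17 with SOX6 was 0.41, SOX5 with SOX2-OT 0.64 and SOX6 with SOX2-OT 0.55. SOX17 with SOX4 moved from -0.21 to 0.13, both without those clusters and without clusters under 200 cells. The cause was not tested. Differences near 2-fold depended on the reference. With clusters under 200 cells left out, SOX18 in cluster 8 was at 0.995 and SOX11 in cluster 4 at 0.988, and SOX6 in cluster 7 was at 0.83 without the clusters dominated by 1 library. Leaving out cluster 0 or cluster 13, chosen after seeing the data, put SOX11 in cluster 4 at 0.98 and 0.96, and 10 differences in all, without cluster 0, were no longer past 2-fold. No paired analysis was possible because each line had 1 library and the averages pooled the lines. Values without each line, and the protein comparison planned, were not run. The number of cells limits cluster 13 (42 cells) and cluster 12 (180 cells) most.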
